A study of Mus musculus with 2 samples.

Results

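The Hox and Cdx genes are 42 of the 27998 mouse genes measured in both libraries, 39 of them named Hoxa, Hoxb, Hoxc or Hoxd with a number and the others Cdx1, Cdx2 and Cdx4. They were chosen by name, after earlier values of the same libraries had shown Hox RNA in tumor cells, so their levels in these cells are given as a description with no test. The series holds 2 single-cell libraries, 1 for each of 2 mouse glioblastomas of the NPCTKO model, both in the C57BL/6 strain at 3 months of age. In this model neural progenitors of the embryonic neocortex received, by electroporation in the uterus, plasmids for Cas9 and guides against tumor suppressors that included Trp53 and Nf1, and a separate cassette for EGFP as a label of the progeny, inserted into the genome by piggyBac transposase. Each tumor is therefore 1 animal that grew from progenitors of 1 brain region, and the host of one carried Tek-Cre with an Ai14 reporter while the host of the other carried Tbx18-CreERT2 with the same reporter. The labels do not say which host belongs to which tumor, so tumor, host and library cannot be told apart.

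Hox genes encode homeodomain transcription factors that sit in clusters, and along each cluster the order of the genes follows the order in which they are used from head to tail of the embryo. Low-numbered genes are used from the hindbrain backward, high-numbered genes in the posterior trunk, limbs and tail, and the forebrain, which includes the neocortex, develops without them. Cdx genes encode related homeodomain factors of the posterior embryo and the intestine that act upstream of central Hox genes, and TALE proteins of the Pbx and Meis families bind DNA together with Hox proteins.

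Cells were classed by raw marker counts. The tumor 1 library kept 12850 of 14302 barcodes, with a median of 18750 unique molecular identifiers (UMIs, each counting 1 captured RNA) a cell, and the tumor 2 library kept 15507 of 18596, with a median of 14016. Glioma-like cells were those with at least 20 EGFP UMIs per 10000 and no host gate passed, 8698 cells (67.7%) in tumor 1 and 8661 (55.9%) in tumor 2, with medians of 18999.5 and 10972 UMIs. Olig1, a glial progenitor factor and 1 of the 9 glioma markers, reached 10.1 and 5.36 UMIs per 10000 in them, and the 9 markers of tumor-associated macrophages and microglia (TAMs) summed to 2.15 and 4.19, against 298 and 234 in TAM-like cells. Cells with EGFP under 20 and at least 5 glioma-marker UMIs per 10000 were kept apart as EGFP-low cells, 2058 and 2573 cells with medians of 19327.5 and 29240 UMIs. The libraries shared 51 barcodes, of which 18 were glioma-like in both.

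The mouse Hox genes of the GRCm38 build lie in 4 clusters. HoxA holds 11 genes over 105 kb of chromosome 6 (chr6:52155590-52260880, minus strand), HoxB 10 genes at chr11:96194316-96368256, HoxC 9 genes at chr15:102921103-103036852 and HoxD 9 genes at chr2:74668310-74765142, the last 3 on the plus strand. Cdx2 lies alone at chr5:147300805-147307270 on the minus strand. The 250 bases before the start of a gene, from RefSeq's annotation of GRCm38.p6, were at hand for 24 of the 42 genes, and 4 stretches are shown because the genes behind them carry the main contrasts below. Hoxa7 (chr6:52218574-52218823, minus strand) had the most UMIs of all members in tumor 1 and there shared more cells with Cdx2 than independence would give. Hoxb8 (chr11:96281655-96281904, plus strand) had no UMI in glioma-like cells. Capitals in these 2 mark TTTATG, letters bound by Cdx proteins, on either strand (CATAAA where the match is on the other strand). Hoxa2 (chr6:52164832-52165081, minus strand) was detected in both tumors, with capitals for TGATTNAT, letters bound by Pbx and Hox proteins together, read here from the other strand as ATCAATCA. Cdx2 (chr5:147307250-147307499, minus strand) separated the tumors and held neither motif.
Hoxa7: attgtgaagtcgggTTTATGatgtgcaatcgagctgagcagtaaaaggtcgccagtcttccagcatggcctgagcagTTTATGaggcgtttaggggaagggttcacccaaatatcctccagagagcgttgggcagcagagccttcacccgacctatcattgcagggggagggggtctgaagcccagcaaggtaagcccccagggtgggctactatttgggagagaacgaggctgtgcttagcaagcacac
Hoxb8: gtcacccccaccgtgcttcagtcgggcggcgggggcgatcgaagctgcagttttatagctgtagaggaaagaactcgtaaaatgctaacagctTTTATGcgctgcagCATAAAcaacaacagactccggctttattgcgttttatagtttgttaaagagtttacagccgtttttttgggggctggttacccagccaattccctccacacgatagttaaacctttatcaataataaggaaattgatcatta
Hoxa2: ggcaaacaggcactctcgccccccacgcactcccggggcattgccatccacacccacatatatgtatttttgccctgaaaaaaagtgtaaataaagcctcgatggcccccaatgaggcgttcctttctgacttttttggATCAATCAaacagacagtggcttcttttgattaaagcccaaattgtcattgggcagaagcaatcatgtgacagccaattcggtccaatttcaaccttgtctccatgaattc
Cdx2: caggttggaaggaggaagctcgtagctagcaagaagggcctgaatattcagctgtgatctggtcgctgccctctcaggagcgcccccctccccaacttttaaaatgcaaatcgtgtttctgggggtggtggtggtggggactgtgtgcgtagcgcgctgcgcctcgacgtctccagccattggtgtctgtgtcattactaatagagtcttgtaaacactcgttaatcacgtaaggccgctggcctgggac
TTTATG occurred in 5 of the 24 member genes (Hoxa7, Hoxb8, Hoxd3, Hoxd4 and Hoxd11), against 12.4% of 27025 genes with a promoter entry. TGATTNAT occurred in Hoxa2 and Hoxd11, against 3.31% of genes. Of the 5 genes with TTTATG, Hoxa7 was the one with more than 2 UMIs in glioma-like cells of either tumor. Any link between this motif and Cdx2 RNA was not tested.

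Hox RNA in the glioma-like cells came almost wholly from HoxA. The members summed to 13509 UMIs in tumor 1 and 4149 in tumor 2, or 0.692 and 0.315 UMIs per 10000, of which the 11 Hoxa genes gave 91.6% and 97.4%. Since the kit tags the end of each RNA, levels are not divided by gene length, and intervals are exact 95% Poisson intervals that cover counting error only. The 9 Hoxc genes gave 671 UMIs (4.97%) in tumor 1 and 68 (1.64%) in tumor 2. The 10 Hoxb genes gave 16 and 14 UMIs, and the 9 Hoxd genes 16 and 24. Of all 42 genes, 10 had no UMI in the glioma-like cells of either tumor, 17 had none in tumor 1 and 12 had none in tumor 2. The 8 genes with at least 100 UMIs in both tumors were all Hoxa genes, among them Hoxa7, Hoxa10 and Hoxa13, and Hoxc9, Hoxc10 and Cdx2 reached that number in tumor 1 alone. Fewer positive cells and less RNA per cell cannot be told apart in these pooled levels.

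**Figure D1:**
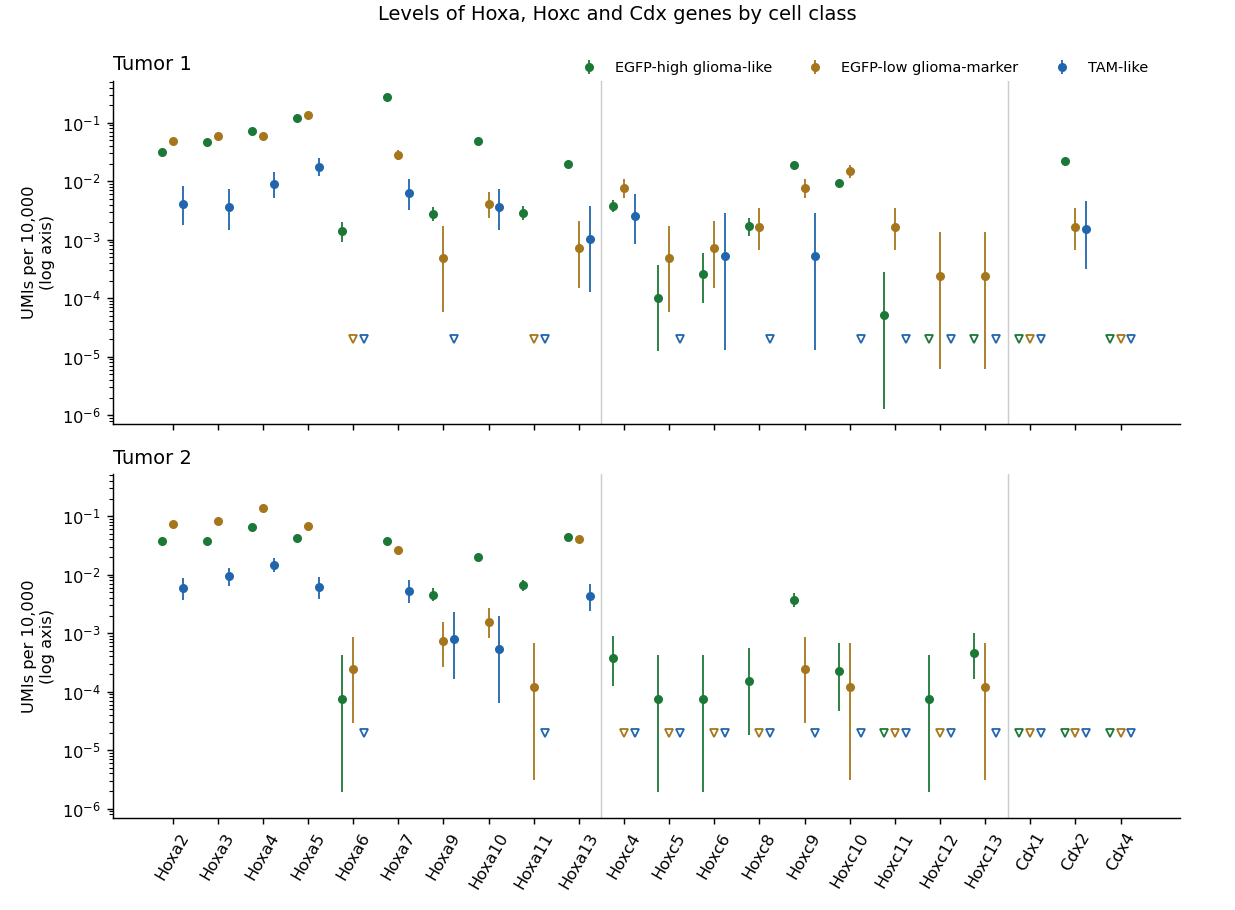
UMIs per 10000 (log axis) of 10 Hoxa genes and of each Hoxc and Cdx gene, in cluster order, in EGFP-high glioma-like cells (green), EGFP-low cells with glioma markers (brown) and TAM-like cells (blue) of tumor 1 (top) and tumor 2 (bottom), with exact 95% Poisson intervals and an open triangle for 0 UMIs. Hoxa7 stands highest in tumor 1 at 0.272, while Hoxa4 stands highest in the glioma-like cells of tumor 2 at 0.0652.

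The anterior genes Hoxa2, Hoxa3 and Hoxa4, used from the hindbrain backward, differed by less than 2-fold between the tumors. Hoxa2 stood at 0.0321 per 10000 in tumor 1 and 0.0374 in tumor 2 (626 and 492 UMIs), a ratio of 0.857 for tumor 1 over tumor 2. Hoxa3 stood at 0.0469 and 0.0379 (916 and 499 UMIs), with a ratio of 1.24. Hoxa4, the most abundant member in tumor 2, stood at 0.0733 (0.0695 to 0.0772) and 0.0652 (0.0609 to 0.0698), a ratio of 1.12. In tumor 1 the levels therefore climbed with position from Hoxa2 to Hoxa4, while in tumor 2 Hoxa2 and Hoxa3 differed by less than counting error and both stood below Hoxa4. Of the exonic bases of Hoxa2 and Hoxa3, 15.0% and 8.01% are shared with the annotated gene Gm28308.

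From Hoxa5 onward the tumors parted. Hoxa5, which patterns the neck and lungs, stood at 0.119 per 10000 in tumor 1 (2319 UMIs) and 0.0430 in tumor 2 (565 UMIs), 2.77 times as high in tumor 1. Hoxa7, a thoracic gene, stood at 0.272 (0.265 to 0.280, 5315 UMIs) and 0.0376 (0.0344 to 0.0411, 495 UMIs), a ratio of 7.24. Hoxa7 alone thus gave more UMIs in tumor 1 than all members together in tumor 2. Hoxa6, which lies between them, was nearly silent with 27 and 1 UMIs, so the order of levels did not run smoothly along the cluster. Hoxa10, a gene of the lumbar spine and uterus, was 2.45 times as high in tumor 1, at 0.0492 against 0.0201 per 10000 (960 and 264 UMIs). Its neighbors Hoxa9 and Hoxa11 were low, with 54 and 56 UMIs in tumor 1 and 60 and 87 in tumor 2, and Hoxa11 was lower in tumor 1 by a log2 ratio of -1.21. Hoxa13, the last gene of the cluster, which patterns hands, feet and hindgut, also stood lower in tumor 1, at 0.0196 against 0.0442 (383 and 581 UMIs, log2 ratio -1.17).

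Outside HoxA, tumor 1 held RNA that tumor 2 nearly lacked. Cdx2 had 433 UMIs in tumor 1, 0.0222 per 10000 (0.0201 to 0.0244), and none in tumor 2, which makes it at least 97.3-fold higher against a floor of 3 UMIs in the library. Cdx1 and Cdx4 had no UMI in the glioma-like cells of either tumor. Hoxc9, a thoracic gene of HoxC, had 375 UMIs against 49 (0.0192 and 0.00373 per 10000, ratio 5.16), and its neighbor Hoxc10 had 180 against 3. Hoxc4 had 75 and 5 UMIs and Hoxc8 33 and 2. In HoxB and HoxD no gene passed 14 UMIs in either tumor, with Hoxd8 at 13 and 14 and Hoxb4 at 8 and 8. Of 13 members with at least 100 UMIs in both tumors together, 6 were higher by 2-fold or more in tumor 1 (Hoxa5, Hoxa7, Hoxa10, Hoxc9, Hoxc10 and Cdx2) and 2 in tumor 2 (Hoxa11 and Hoxa13), where 23.4% and 6.36% of all 15111 genes with as many UMIs passed the same fold. With 1 library a tumor, these differences have no replicate check.

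Single cells rarely held more than a few of these UMIs. Hoxa7 was found in 1700 glioma-like cells of tumor 1 (19.5%), with up to 68 UMIs in 1 cell, and in 283 cells of tumor 2 (3.27%), with up to 12. In TAM-like cells, whose lineage is not the tumor's and whose median depths were 17501 and 15881 UMIs, the share with Hoxa7 was 1.11% and 0.843%. Hoxa5 was found in 14.5% and 4.87% of glioma-like cells, against 2.53% and 1.05% of TAM-like cells, and Hoxa4 in 9.67% and 7.38% against 1.72% and 2.42%. Hoxa10 was found in 8.07% and 2.03%, against 0.707% and 0.105%. Hoxa13 was found in 3.72% and 4.86%, against 0.202% and 0.791%, and Cdx2 in 3.68% of the tumor 1 cells against 0.303%. Each of these shares lay above that in TAM-like cells of the same tumor. The RNA was unevenly spread, in that the 87 cells with the most Hoxa7 in each tumor, 1% of the class, held 28.5% of its UMIs in tumor 1 and 57.2% in tumor 2. For Hoxc10 in tumor 1 the top 87 cells held 81.1% of its UMIs.

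Hoxa levels differed with the level of EGFP, the label of the tumor lineage, within each tumor. Going up through bins of EGFP per 10000 (0 to 10, 10 to 20, 20 to 50, 50 to 100, 100 to 200, and 200 or more), the pooled Hoxa7 level in tumor 1 was 0.0276, 0.0283, 0.0521, 0.122, 0.336 and 0.914 per 10000. Hoxa9, Hoxa10 and Hoxa11 summed to 0.00631, 0.00379, 0.0109, 0.0367, 0.0855 and 0.135 in the same bins. Hoxa13 had no UMI in the lowest bin and reached 0.00383 at 20 to 50 and 0.0519 in the top bin, and Cdx2 went from 0.00237 in the lowest bin to 0.0496 in the top one. These posterior and central genes therefore climbed at each step above 20, the line that defines the class, and stood low in both bins below it. The sum of Hoxa2 to Hoxa5 followed another course in tumor 1, at 0.319, 0.299, 0.244, 0.142, 0.199 and 0.664. Within this sum the genes differed. From the lowest to the top bin Hoxa2 fell from 0.0568 to 0.0243, and in tumor 2 it fell from 0.0695 to 0.00877. Hoxa3, Hoxa4 and Hoxa5 of tumor 1 stood at 0.0600, 0.0631 and 0.139 in the lowest bin and at 0.108, 0.233 and 0.299 in the top one. Median depth in tumor 1 stayed between 18425 and 20016 UMIs over the 6 bins. The bins were not chosen alike, in that those below 20 held only cells with at least 5 glioma-marker UMIs per 10000, which was not asked of the bins above 20 and was met by 96.5% and 87.1% of the glioma-like cells.

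In tumor 2 the anterior and posterior genes ran in opposite directions. The sum of Hoxa2 to Hoxa5 was 0.357, 0.360, 0.314, 0.129, 0.0549 and 0.0362 per 10000 from the lowest EGFP bin to the highest. Hoxa9 to Hoxa11 summed to 0.00259, 0.00231, 0.00327, 0.0104, 0.0480 and 0.0965 in the same bins. Hoxa7 changed less, from 0.0123 to 0.0775, and Hoxa13 stood between 0.0219 and 0.0587 with no steady course. In the top bin the posterior sum thus exceeded the anterior sum, while in the 4 lowest bins the anterior sum was the higher one and at 100 to 200 the intervals overlapped. The bins of tumor 2 differed in depth, with medians of 32688, 27259.5, 11102, 2713, 13358 and 17971 UMIs, and the part of depth in these courses was not tested.

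**Figure D2:**
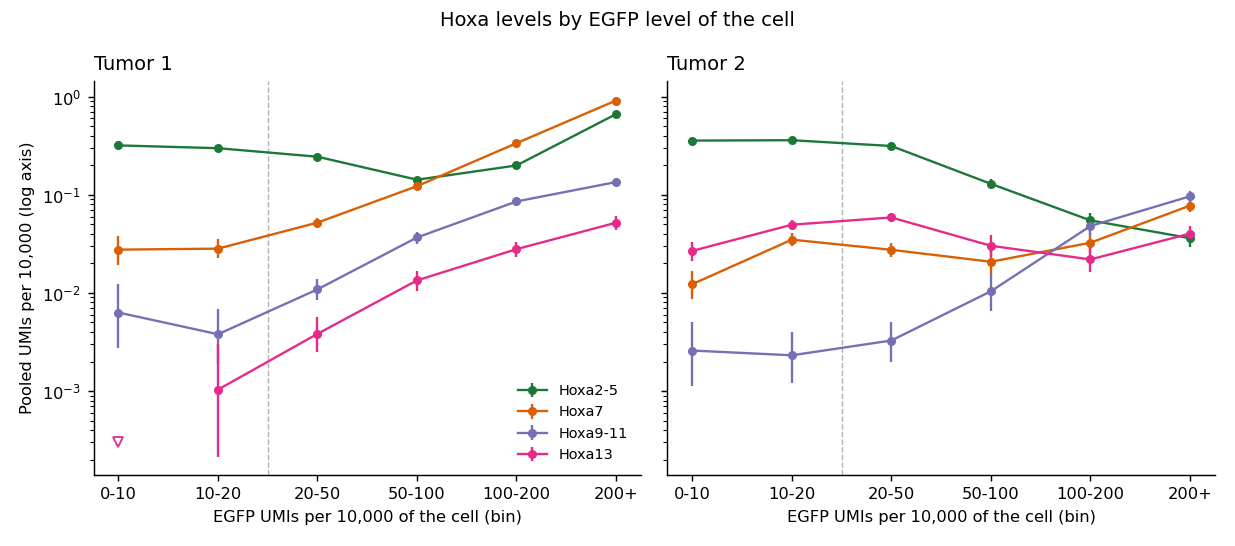
Pooled UMIs per 10000 (log axis) of Hoxa2 to Hoxa5, Hoxa7, Hoxa9 to Hoxa11 and Hoxa13 by the EGFP level of the cell, in 6 bins, for tumor 1 (left) and tumor 2 (right), with exact 95% Poisson intervals, an open triangle for 0 UMIs and a dashed line at the class limit of 20. Hoxa9 to Hoxa11 climb with EGFP in both panels, to 0.135 and 0.0965. The sum of Hoxa2 to Hoxa5 ends at 0.664 in tumor 1 and 0.0362 in tumor 2.

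Set side by side, glioma-like cells with high EGFP and cells with glioma markers but low EGFP differed at the posterior end. Among the 12 members of tumor 1 with at least 100 UMIs in both classes together, 5 were higher by 2-fold or more in EGFP-high cells, where 11.5% of 14550 genes were. Hoxa7 was 9.70 times as high, Hoxa10 12.1 times, Cdx2 13.2 times and Hoxc9 2.50 times, and Hoxa13 had 383 UMIs against 3. The EGFP-high class held 195168524 UMIs against 41682228, so a member could reach 100 UMIs through it alone, as Hoxa13 did. Hoxc11, with 1 UMI in EGFP-high and 7 in EGFP-low cells, did not reach that number. The counts of members past 2-fold are therefore a description and no support for a direction. Hoxc4 was the only one of the 12 to meet the rule the other way, at 0.00384 against 0.00768 per 10000, where 0.433% of genes did. Its ratio of 0.501 lies at the limit, and it met the rule only because a small constant is added to each count. Hoxc10 had 180 UMIs in EGFP-high cells and 62 in EGFP-low cells, 37 of the latter in 1 cell. In tumor 2, Hoxa10 was 12.8 times as high in EGFP-high cells, the only one of 8 members past 2-fold in that direction, where 8.28% of 14084 genes were. Hoxa3 and Hoxa4 were lower, at 0.459 and 0.476 of the EGFP-low level, where 0.504% of genes were lower by as much. Hoxa13 stood apart from the tumor 1 pattern, at 0.0442 in EGFP-high and 0.0411 in EGFP-low cells of tumor 2. Among members with at least 100 UMIs in the comparison, Hoxa10 was past 2-fold in the same direction in both tumors. Below that number, Hoxc9 had 49 UMIs in EGFP-high and 2 in EGFP-low cells of tumor 2, Hoxa9 had 54 and 2 in tumor 1 and 60 and 6 in tumor 2, and Hoxa11 had 56 and 0 in tumor 1 and 87 and 1 in tumor 2.

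Co-detection within cells was counted after drawing the same number of UMIs from each cell, 5000 in 7540 cells of tumor 1 and 5346 of tumor 2, and shallower glioma-like cells were left out. At this depth 79.9% of tumor 1 cells held none of 10 Hoxa genes (Hoxa6 was not counted), 16.3% held 1 and 3.20% held 2, and in tumor 2 88.2% held none and 10.5% held 1. Without thinning, 59.4% and 78.1% held none. Any of Hoxa2 to Hoxa5 met any of Hoxa9 to Hoxa11 in 32 cells of tumor 1, where independence would give 19.8 (ratio 1.61, 1.10 to 2.28). In tumor 2 the same pair met in 0 cells where independence would give 5.24, which allows a ratio of up to 0.704. At 10000 UMIs a cell, in 6722 and 4573 cells, 102 cells of tumor 1 held both (ratio 1.67) and 4 cells of tumor 2 (ratio 0.236, 0.0643 to 0.604). In these draws anterior and posterior Hoxa RNA met more often than independence gives in tumor 1 and less often in tumor 2. The first did not hold with class gates at 2 times the level, where the tumor 1 ratio was 0.953 (0.555 to 1.53), and with glioma markers also required the tumor 2 ratio was 0.842 (0.229 to 2.16). A single draw is noisy at such counts: averaged over all possible draws of 5000 UMIs the ratios were 1.49 and 0.185. Taken within EGFP bins, also averaged over all draws, they were 1.29 and 0.514. Both averages were added after the counts of the first draw were seen, and the difference between the tumors was not tested because each is 1 library.

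Hoxa7 shared cells with its posterior neighbors more often than independence gives in both tumors. Hoxa7 and any of Hoxa9 to Hoxa11 met in 72 cells of tumor 1 against 19.0 if independent (ratio 3.79, 2.97 to 4.78) and in 10 cells of tumor 2 against 1.26 (ratio 7.96, 3.82 to 14.6). Averaged over all draws the ratios were 3.65 and 8.81, and within EGFP bins 2.09 and 5.72. Cdx2 and Hoxa7 met in 35 cells of tumor 1 against 7.37 (ratio 4.75, 3.31 to 6.60), where the average over draws was 25.3 cells against 7.13 (ratio 3.55) and the ratio within EGFP bins 2.17. Cdx2 was not tied to Hoxa7 alone. On average over draws it met Hoxa10 in 8.02 cells against 1.86 (ratio 4.30, or 2.70 within bins). It met Hoxc9 in 3.38 cells against 0.711 (ratio 4.76, or 3.26 within bins). Any of Hoxa2 to Hoxa5 met Cdx2 in 8 cells where 7.70 would be given, and in 10.7 against 7.49 on average (ratio 1.43, or 1.27 within bins). Hoxc9 and Hoxc10, neighbors in HoxC, met in 7 cells of tumor 1 against 0.277, with an average ratio of 15.0 and of 10.0 within bins. Among anterior genes, Hoxa3 met Hoxa4 in tumor 1 at a ratio of 4.31, or 4.33 averaged and 3.34 within bins. In tumor 2 the ratio of Hoxa3 and Hoxa4 was 3.58, or 2.62 averaged and 1.66 within bins. Cells share a library and a depth, so these ratios describe the 2 tumors and are not tests.

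**Figure D3:**
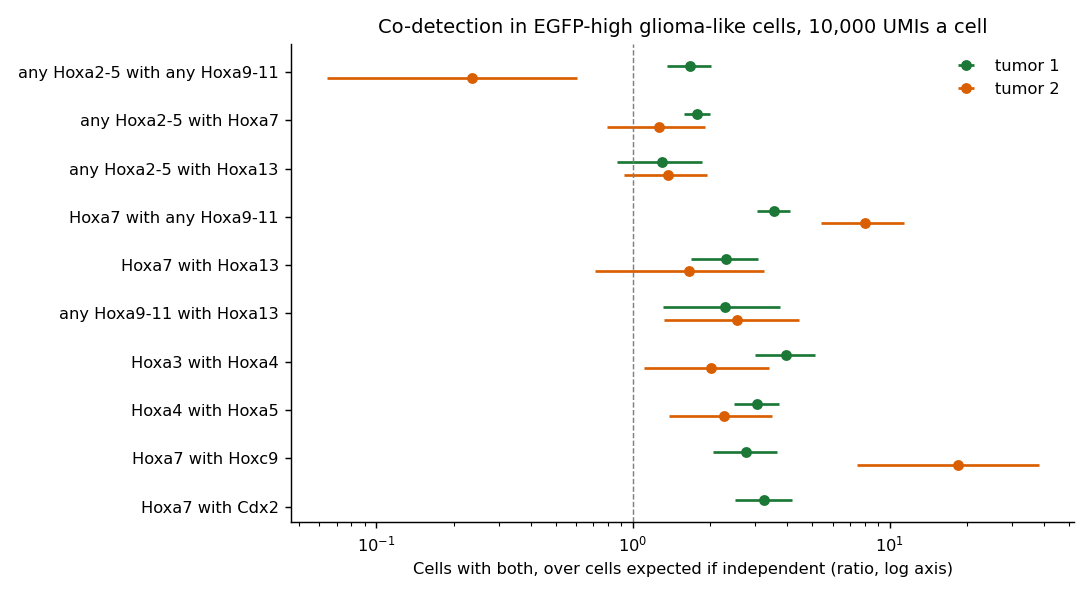
Glioma-like cells holding both items of a pair over the number expected if the items were independent (ratio on a log axis), at 10000 UMIs a cell, for tumor 1 (green) and tumor 2 (orange), with exact 95% Poisson intervals on the joint count and a dashed line at a ratio of 1. Anterior with posterior Hoxa genes stand at 1.67 in tumor 1 and 0.236 in tumor 2, while Hoxa7 with Hoxa9 to Hoxa11 stands above 1 in both tumors.

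Hoxa RNA was much lower in TAM-like and T-cell-like cells than in glioma-like cells, and Hoxb4 had another distribution. Summed over HoxA, TAM-like cells (990 and 1897) stood at 0.0482 and 0.0480 UMIs per 10000, against 0.634 and 0.307 in glioma-like cells. T-cell-like cells (269 and 622) stood at 0.0491 and 0.0729, and endothelial-like cells (36 and 21) had 2 Hoxa UMIs in each tumor. As a share of the glioma-like level, Hoxa in TAM-like cells came to 7.61% and 15.6%, beside 5.63% and 5.05% for EGFP and 14.4% and 10.5% for the summed glioma markers. In T-cell-like cells Hoxa came to 7.74% and 23.7%, beside 6.15% and 6.20% for EGFP and 13.7% and 13.9% for glioma markers. Host classes were gated to EGFP under 20, and the part of free RNA in their Hoxa UMIs was not tested. Oligodendrocyte-like cells with EGFP under 20 (66 and 48 cells) stood at 0.0334 and 0.379, but 1 cell of tumor 2 with 151871 UMIs held 24 of that class's 33 member UMIs, 18 of them from Hoxa3. Without it the sum of Hoxa2 to Hoxa5 in that class fell from 0.322 per 10000, 175% of the glioma-like level, to 0.0835. This was still above the 0.0729 of all Hoxa genes in T-cell-like cells of that tumor, but rests on few UMIs (3 of Hoxa3).

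Hoxb4, which is used in blood stem cells, had its highest levels in immune classes. TAM-like cells had 48 UMIs in tumor 1 and 85 in tumor 2, or 0.0249 (0.0184 to 0.0330) and 0.0227 (0.0181 to 0.0280) per 10000, and T-cell-like cells 10 and 13 UMIs, or 0.0289 and 0.0146. Glioma-like cells had 8 UMIs in each tumor, 0.00041 and 0.00061 per 10000. The glioma-like and immune intervals did not overlap in either tumor. Oligodendrocyte-like and endothelial-like cells had no Hoxb4 UMI. They held 898235 and 870212 UMIs of all genes (oligodendrocyte-like) and 652449 and 501944 (endothelial-like). In either tumor this is too few to show a level below that of TAM-like cells. Its neighbor Hoxb3 had 10 and 3 UMIs in TAM-like cells and 2 and 1 in glioma-like cells. Between T-cell-like and TAM-like sums, 8 members could be tested (Hoxa2, Hoxa3, Hoxa4, Hoxa5, Hoxa7, Hoxa10, Hoxa13 and Hoxb4) and none passed, where 9.88% of 14334 genes were higher in the first class and 12.4% in the second. The filter on low counts covered all classes, so Hoxa genes could enter through the glioma-like sums, where they are high. With standard errors from 0.46 (Hoxa5) to 1.21 (Hoxa13) on the log2 scale, the test could miss all but large differences. It does not show equal levels. The log2 difference of Hoxb4 was -0.36 with a standard error of 0.60 (edgeR quasi-likelihood test, adjusted p = 0.760). None of the 8 had an unadjusted p under 0.05 in edgeR or an adjusted p under 0.05 in DESeq2, and the lowest edgeR adjusted p was 0.553 for Hoxa10, whose fold of T-cell-like over TAM-like cells was 1.02 on the log2 scale (standard error 0.99).

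**Figure D4:**
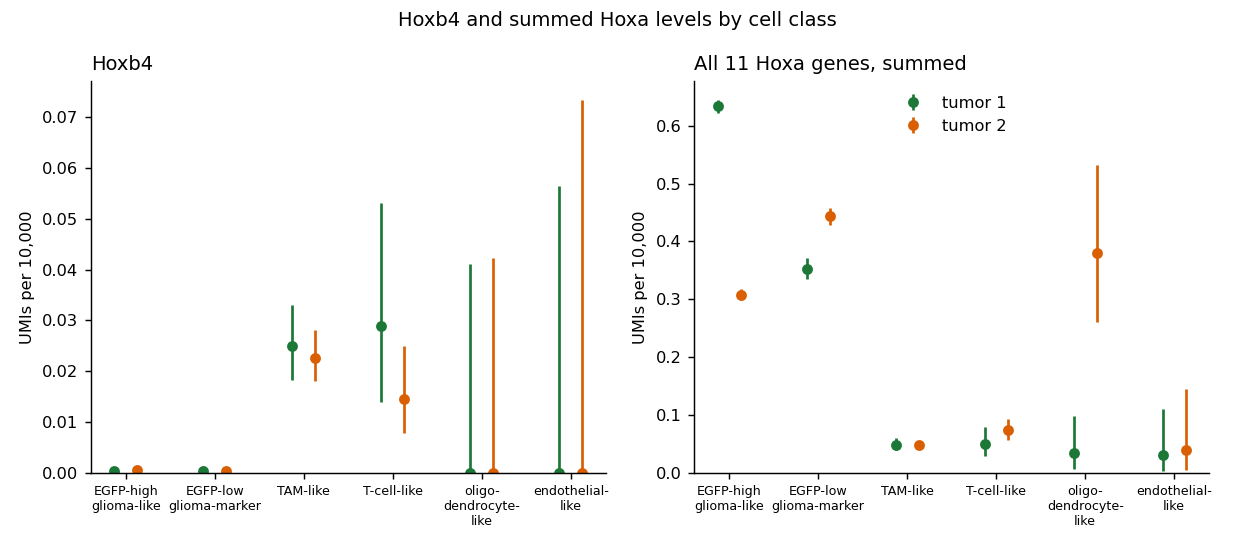
UMIs per 10000 of Hoxb4 (left) and of the 11 Hoxa genes summed (right) in 6 cell classes of tumor 1 (green) and tumor 2 (orange), with exact 95% Poisson intervals. Hoxb4 stands at 0.0249 and 0.0227 in TAM-like cells and near 0 in glioma-like cells, and the high Hoxa point of the tumor 2 oligodendrocyte-like class (0.379) rests on 1 cell.

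Genes that act with, regulate or lie beside the Hox genes were taken from 8 lists of 127 genes, of which 94 passed the filter on low counts. That filter covered all classes, so a gene could enter through the glioma-like sums alone. Each of the 94 was tested with edgeR between glioma-like cells and each of 4 host classes, with the tumor as a block. The 4 comparisons share the glioma-like sums. Against TAM-like cells 35 of the 94 were higher in glioma-like cells and 9 lower, where 23.1% and 21.6% of all 14334 genes were. Against T-cell-like cells 25 were higher and 21 lower (20.4% and 19.3% of all genes), against oligodendrocyte-like cells 6 and 2 (4.49% and 5.83%) and against endothelial-like cells 16 and 9 (9.61% and 12.3%). The same test without the tumor block called 7, 10, 0 and 6 genes in the order given. Differences are relative to TMM factors, which set most genes as unchanged. With library totals as the only scaling, added after seeing the data, the log2 differences of all genes shifted toward glioma-like cells by a median of 0.78, 0.63, 0.08 and 0.21 in the same order. The list calls were then 59 higher and 3 lower, 37 and 6, 7 and 2, and 22 and 4, so that calls of lower genes in the immune comparisons depend on the scaling.

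The TALE cofactors, which bind DNA with Hox proteins, were called higher in glioma-like cells more often than lower. Of 9 tested, 5 were higher and 1 lower in glioma-like than in TAM-like cells, with a median log2 difference of 1.19 beside 0.09 over all genes, and 4 were higher and none lower than in T-cell-like cells. Library totals gave 5 higher and none lower against either class. Meis2 stood at 0.538 UMIs per 10000 in tumor 1 and 0.281 in tumor 2, against 0.104 and 0.0224 in TAM-like cells (log2 difference 2.22, SE 0.38, adjusted p = 0.000709), and also passed against T-cell-like (2.38, SE 0.41) and endothelial-like cells (2.43, SE 0.57). Meis1 was higher than in those 3 classes as well, by 1.19, 2.47 and 3.44. Pknox2 passed against both immune classes (2.14 and 1.88), Pbx4 against TAM-like cells (1.98) and Meis3 against endothelial-like cells (3.00). Both Meis2 and Meis1 stood lower in tumor 2 than in tumor 1, Meis1 at 0.137 and 0.0516.

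Regional factors of the forebrain and of more posterior brain were detected in the same glioma-like sums as the Hox genes. Whether they share single cells with Hox RNA was not counted. Lhx2, a cortical selector gene, had 5715 and 1315 UMIs and was higher in glioma-like cells in all 4 comparisons, by log2 differences of 1.78 to 2.89. Of the 14 listed forebrain genes 6 were tested, and all 6 were higher than in TAM-like cells, among them Nr2e1 (2.63), Pax6 (1.74), Six3 (4.95) and Emx2 (2.05). Six3 had 1 UMI in TAM-like cells of tumor 1 and 0 in those of tumor 2, so the size of its fold is uncertain. Nr2e1 and Pax6 were also higher than in the T-cell-like class, by 2.79 and 1.87. En1, a factor of the midbrain and hindbrain border, had 5847 and 1689 UMIs and was higher than in TAM-like cells (3.07, SE 0.87, adjusted p = 0.0137) and T-cell-like cells (3.12, SE 0.98). En2, Irx3 and Irx5 were likewise higher than in both immune classes, En2 by 1.78 and 2.67, Irx3 by 2.39 and 2.23 and Irx5 by 2.42 and 2.05. Lbx1, a factor of the dorsal cord, passed against TAM-like cells (2.55), and Egr2, a hindbrain factor that immune cells also use, against T-cell-like cells (3.17). Of the 14 listed genes of midbrain, hindbrain and cord 7 were tested, and none was lower in any of the 4 comparisons. Higher calls numbered 6 against TAM-like, 5 against T-cell-like, 0 against oligodendrocyte-like and 1 against endothelial-like cells. Genes of both regional lists could pass the filter through the glioma-like sums, where they are high. The counts of calls are thus weighted toward higher genes and do not by themselves show a direction.

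Retinoic acid, made from vitamin A, is a known inducer of anterior Hox genes, and the genes for its handling were mixed. Of 13 tested, 6 were higher and 2 lower than in TAM-like cells and 4 higher and 3 lower than in T-cell-like cells, or 8 and 1 and 6 and 2 by library totals. Aldh1a1, which makes retinoic acid, was higher than in TAM-like, T-cell-like and oligodendrocyte-like cells, by log2 differences of 1.94, 1.89 and 1.65. Stra6, a retinol transporter, had 82 and 10 UMIs in glioma-like and none in TAM-like cells, and was far higher in endothelial-like cells (-7.63). Rarb, a retinoic acid receptor, was higher than in both immune classes, by 2.94 and 3.02. Dhrs3, which lowers retinoic acid formation, was lower than in TAM-like cells by a log2 difference of -4.49 and than in the T-cell-like class by -2.03, the second of which did not pass by library totals (-1.39, adjusted p = 0.0626). Crabp2, a retinoic acid carrier, passed in opposite directions, at 2.25 against TAM-like and -3.96 against T-cell-like cells.

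Polycomb proteins keep Hox clusters silent and Trithorax proteins keep them active, and in both lists the split of calls depended on the scaling. Of 23 Polycomb genes 7 were higher and 2 lower than in TAM-like cells, and 3 were higher and 10 lower than in T-cell-like cells, whereas library totals gave 14 and 0 and then 5 and 3. Eed, a core subunit of the complex that methylates histone H3, was lower than in both, by -1.25 (SE 0.24) and -1.55 (SE 0.24), and by library totals passed against T-cell-like cells alone (-0.91). Ezh2, the methyltransferase of that complex, was higher against TAM-like cells (0.74, adjusted p = 0.0312). Against T-cell-like cells Ezh2 was lower with TMM factors (-0.83, adjusted p = 0.0214) and at -0.20 by library totals (adjusted p = 0.543). Phc1, a subunit of the other main Polycomb complex, was higher than in both immune classes (1.04 and 1.36) and lower than in oligodendrocyte-like cells (-1.12). Cbx6 was higher than in both (1.54 and 0.91). Ezh1 was lower than in both immune classes with TMM factors (-1.11 and -1.16), neither of which passed by library totals, and Phc3 went from -0.63 to 0.00 against T-cell-like cells. Of 17 Trithorax-group genes 2 were higher and 1 lower than in TAM-like cells, and 1 was higher and 6 lower than in T-cell-like cells, whereas library totals gave 9 and 1 and then 4 and 0. Kmt2a, the methyltransferase best known for activating Hox genes, stood at 1.25 and 0.420 per 10000, against 1.11 and 0.559 in T-cell-like cells, higher in tumor 1 and lower in tumor 2. Its log2 difference was -0.79 with TMM factors (SE 0.29, adjusted p = 0.0439) and -0.16 by library totals (adjusted p = 0.648). Psip1, which tethers it to chromatin, was higher than in TAM-like cells (1.69, SE 0.20), and Aff1, of the elongation complex, was lower than in TAM-like cells (-1.67). Mllt3 was higher than in the TAM-like class (0.79). Against T-cell-like cells Aff1 (-1.35), Mllt3 (-1.18), Kdm6a (-0.74) and Wdr5 (-0.95) passed with TMM factors and not by library totals.

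Among noncoding transcripts inside the clusters, Hotairm1 was the abundant one. It lies at the anterior end of HoxA and had 5716 UMIs in tumor 1 and 3627 in tumor 2, or 0.293 and 0.276 per 10000, more than any coding member in either tumor. It was higher than in TAM-like cells by a log2 difference of 1.74 (SE 0.38, adjusted p = 0.00341), than in T-cell-like cells by 1.89 and than in endothelial-like cells by 2.06. Hoxaas3, also in HoxA, had 533 and 403 UMIs. Hottip, beyond Hoxa13, had 20 and 6, and Hotair, in HoxC, had 0 and 1. Of the 17 tested genes that flank the clusters, 2 were higher and 3 lower than in TAM-like cells and 3 were higher and 2 lower than in T-cell-like cells, whereas library totals gave 8 and 1 and then 6 and 1. Skap2, which flanks HoxA, passed in opposite directions, at -1.64 (SE 0.28) against TAM-like and 0.94 (SE 0.28) against T-cell-like cells. Jazf1 and Cbx5 were higher than in TAM-like cells (1.35 and 1.36), and Snx10 was higher than in the T-cell-like class (1.15). Tax1bp1 was lower with TMM factors (-0.62 against TAM-like and -0.64 against T-cell-like cells), but by library totals was at 0.16 and -0.00. Ube2z likewise went from -0.69 to 0.09 against TAM-like cells, so that neither direction holds under both scalings.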

How the data were processed

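Tumors were dissected and digested to single cells, and RNA was captured with the 10x Single Cell 3' V2 kit. The authors aligned reads to mm10 with the transgenes added and counted UMIs with Cell Ranger 4.0.0, per the labels, and the deposited matrices hold raw UMI counts per gene and barcode. Seurat is named in the submitters' notes, but none of its output was used here. The members and lists were chosen with earlier results of these data known, and the members by name, not by a threshold. Members are printed where they had at least 100 UMIs in the glioma-like cells of a tumor or at least 10 in another class, and the rest by count. List genes are named where they passed in the most comparisons or had the largest fold, up to 6 a list. Some genes are not reported here.

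Cells were kept with at least 500 genes, under 20% mitochondrial UMIs and under 5% hemoglobin UMIs. Marker sums per 10000 UMIs gated TAM-like (40), T-cell-like (10), B-cell-like (10), neutrophil-like (20), endothelial-like (10), mural-like (10) and oligodendrocyte-like (20) cells. These levels, and the EGFP-low class, were set after the marker distributions were seen. Trbc2 was not among the measured genes, which left 6 of 7 T-cell markers. Cells that passed more than 1 gate were left out as possible doublets. So were cells with EGFP at 20 or more per 10000 that passed 1 gate other than the oligodendrocyte-like gate (461 and 1099 cells in all). No doublet caller was run, and doublets of 1 class are not seen. EGFP was listed under 2 names in tumor 2 and summed, the second with 436 UMIs.

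Counts were summed by class and tumor into 14 sums of 7 classes, filtered to 14334 genes and tested with edgeR 4.0.16 (quasi-likelihood, TMM, tumor as a block, 6 residual degrees of freedom), with Benjamini-Hochberg adjustment over all genes and a threshold of 0.05. Both members of a pair come from 1 animal, and deviations from class means correlated between classes in all 21 pairs (Pearson r across genes 0.146 to 0.822, median 0.439). With the tumor as a block, p-values measure how far class differences vary between these 2 animals, pooled over the 7 classes. They do not measure the spread among further animals. Levels in a single tumor and shares of cells have no replicates. Alternatives used DESeq2 1.42.0, other gates and filters, and other scalings (DESeq2 size factors and library totals only). The tests were checked on simulated counts. Promoters came from RefSeq, 250 bases upstream of each start, with motifs searched on both strands.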

Additional observations from a re-analysis of the deposited data

How the results depend on the processing

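With library totals as the only scaling 3 named values turned, to 0.16 for Tax1bp1 and 0.093 for Ube2z against TAM-like cells and 0.0041 for Phc3 against T-cell-like cells, none of which passed the test. Of the 44, 46, 8 and 25 list calls 38, 31, 8 and 20 were kept in the same direction. Of all genes called, 81.2% were then higher against TAM-like and 79.7% against T-cell-like cells, in place of 51.7% and 51.4%. The replicate block decided most list calls: without it, edgeR called 7 list genes against TAM-like, 10 against T-cell-like, 0 against oligodendrocyte-like and 6 against endothelial-like cells, in place of 44, 46, 8 and 25. Leaving out either tumor kept the direction of all 44, 46, 8 and 25, from TMM-scaled values with no test. A gene that passes with the tumor as a block mostly has the same sign in both tumors, so this could hardly fail and gives no support. Without TMM factors Kmt2a had no shared direction against T-cell-like cells, at 1.25 against 1.11 per 10000 in tumor 1 and 0.420 against 0.559 in tumor 2. Without the filter on low counts the median of all genes shifted by 0.126 against T-cell-like and 0.102 against endothelial-like cells on the log2 scale, and with an EGFP limit of 10 by -0.103 between T-cell-like and TAM-like cells. With DESeq2 size factors 4 genes were called against oligodendrocyte-like cells, and the cause was not tested. Members between T-cell-like and TAM-like cells had 0 calls under every alternative run. Of 1175 values of named list genes 992 kept their call, 3 turned and 180 lost it, 77 of those without the block.

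The summed member level of glioma-like cells (0.692 and 0.315 per 10000) moved most with the EGFP limit. In tumor 1 it was 0.649 with a limit of 10, 0.864 with 50, 0.708 with a mitochondrial limit of 10% and 0.666 without the top 10% of cells by UMIs. In tumor 2 it was 0.355, 0.220 and 0.293 in the order limit 10, limit 50 and top 10% left out, and 0.328 with glioma markers also required, an alternative added after seeing the data. The co-detection ratio of Hoxa2 to Hoxa5 with Hoxa9 to Hoxa11 turned to 0.953 in tumor 1 with class gates at 2 times the level and was 0.842 in tumor 2 with glioma markers required, each from 1 draw. With an EGFP limit of 50 Hoxa3 and Hoxa4 met in 0 cells of tumor 2, a ratio of 0 whose interval reached 40.1.

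Endothelial-like cells gave no value with an EGFP limit of 10, a mitochondrial limit of 10%, the top 10% left out or at least 5000 UMIs, nor for oligodendrocyte-like cells with a limit of 10, since a class then held under 20 cells in a tumor. With 1 library a tumor, depth limits members under 100 UMIs to counts.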

Other observations

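Glioma-like cells in cycle (Mki67 and Top2a summed to 2 or more UMIs per 10000) held more anterior Hoxa RNA than the other glioma-like cells in both tumors. The sum of Hoxa2 to Hoxa5 was 0.333 against 0.242 per 10000 in tumor 1 (2142 and 6556 cells) and 0.239 against 0.164 in tumor 2 (2263 and 6398 cells). Hoxa7 was 0.340 against 0.240 in tumor 1 and 0.0565 against 0.0308 in tumor 2, and the Hoxc genes were 0.0501 against 0.0268 and 0.0126 against 0.00248. Hoxa13 had overlapping intervals in both tumors, at 0.0174 in cycling and 0.0207 in other cells of tumor 1 and 0.0456 and 0.0437 in tumor 2, as did Hoxa9 to Hoxa11 in tumor 2 (0.0330 and 0.0306). Median EGFP was close between the states, at 67.3 and 73.0 per 10000 in tumor 1 and 53.6 and 56.9 in tumor 2. Medians do not show how cells with the highest EGFP were shared between the states. In tumor 1 the 1267 cells with EGFP at 200 or more held 2780 of the 5315 Hoxa7 UMIs. The part of EGFP in these differences was not tested.

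Cells with Gpr17, a receptor of committed oligodendrocyte precursors, at 2 or more per 10000 held less Hoxa7 than the others in both tumors, at 0.142 against 0.312 in tumor 1 and 0.0129 against 0.0392 in tumor 2. Hoxa2 to Hoxa5 summed to 0.115 against 0.318 in tumor 1, whereas the intervals in tumor 2 overlapped (0.161, 0.133 to 0.191, against 0.185, 0.177 to 0.193). Cells with astrocyte markers at 10 or more per 10000 held less Hoxa7 in tumor 1 (0.116 against 0.295) and a like level in tumor 2 (0.0388 against 0.0375). Their sum of Hoxa2 to Hoxa5 was lower in tumor 1 (0.227, 0.209 to 0.246, against 0.278, 0.270 to 0.286). In tumor 2 that sum was higher (0.239, 0.214 to 0.266, against 0.177, 0.170 to 0.185). Median EGFP of the cells with astrocyte markers was lower, at 59.0 against 74.3 per 10000 in tumor 1 and 40.8 against 59.7 in tumor 2. Its part in the Hoxa levels was not tested. These are pooled levels of 1 library a tumor, without a test.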
